A study of Mus musculus with 8 samples.

Results

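The 8 genes described here encode the chemokines Cxcl1, Cxcl2, Cxcl3 and Cxcl5, their shared receptor Cxcr2, and the colony-stimulating factors Csf1, Csf2 and Csf3. They were taken by symbol from a table of 32098 genes, and all 8 were found. The table came from RNA sequencing of 8 whole mouse tumours labelled as the cell line 4T1, a mammary carcinoma line, with the genotype given as WT. Of these, 4 were treated with only an immune checkpoint inhibitor (ICI 1, 2, 3 and 4) and 4 with radiation plus the inhibitor (RI 1, 2, 4 and 5), so all 8 tumours had received the inhibitor and none was untreated. Neither the identity of the inhibitor nor the dose of radiation, the time of harvest, or the age and strain of the mice is given by the labels. The design text counts 3 replicates a group, but the sample list has 4, and all 8 samples entered the comparison. Nothing states that the tumours came from separate animals, so p-values measure only the spread between samples, some or all of which may be technical.

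Neutrophils leave the blood along gradients of small secreted CXC chemokines that carry a glutamate-leucine-arginine motif, and in the mouse Cxcl1, Cxcl2, Cxcl3 and Cxcl5 belong to this class. Their receptor, Cxcr2, is a G protein-coupled receptor that neutrophils carry at high density. The colony-stimulating factors act a step earlier: Csf3 (G-CSF) drives the making and release of neutrophils in the bone marrow, Csf2 (GM-CSF) acts on granulocytes, macrophages and dendritic cells, and Csf1 (M-CSF) is the growth and survival factor of macrophages. The 4T1 line is known for releasing G-CSF and for raising granulocyte numbers in its host. NF-kB, activated by IL-1, TNF and IL-17, is a textbook inducer of these chemokines.

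On GRCm38 the ligands lie side by side on the plus strand of chromosome 5, Cxcl5 at chr5:90759360-90761624, Cxcl3 at chr5:90786103-90789600, Cxcl1 at chr5:90891241-90893115 and Cxcl2 at chr5:90903871-90905938. This stretch of 147 kb holds 8 genes of the table, the others being Ppbp, Pf4, Cxcl15 and Gm43085. Cxcr2 is at chr1:74153989-74161246 on the plus strand and Csf1 at chr3:107741048-107760469 on the minus strand. Csf2 is at chr11:54247271-54249667 on the minus strand and Csf3 at chr11:98701263-98703629 on the plus strand. RefSeq promoter entries (GRCm38.p6, from 250 bases before to 50 bases after the start) were matched for 6 of the 8 genes and not for Cxcl5 and Csf3. The promoters of the 3 neighbouring ligands are shown because their RNA levels differed from tumour to tumour in similar order, as given further on. Each line holds 90 bases of the plus strand, from 120 to 31 bases before the RefSeq start, and the capitals mark GGGAATTTCCC, the longest run of bases that all 3 share before their starts, which reads as a classical NF-kB site.
Cxcl3, chr5:90785981-90786070: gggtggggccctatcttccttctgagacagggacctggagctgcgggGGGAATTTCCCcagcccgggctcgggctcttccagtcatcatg
Cxcl1, chr5:90891125-90891214: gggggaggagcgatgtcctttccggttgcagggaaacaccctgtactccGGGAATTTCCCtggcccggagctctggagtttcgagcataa
Cxcl2, chr5:90903779-90903868: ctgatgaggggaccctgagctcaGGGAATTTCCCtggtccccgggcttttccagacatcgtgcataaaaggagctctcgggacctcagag

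The run of 11 bases began at −73 in Cxcl3, −71 in Cxcl1 and −97 in Cxcl2, counted from the RefSeq start, and was found on either strand in 14 of 32851 promoters of the same length (0.0426%). It was chosen because these 3 promoters hold it, so its rarity elsewhere is a description. The looser NF-kB consensus was in 8.46% of all promoters. It matched 2 times in each of these 3 genes, both times within the capitals on opposite strands, 1 time in Csf1, and 0 times in Cxcr2 and Csf2. The only other run of at least 8 bases that the 3 share before their starts is the TATA-like ATAAAAGG, at −29 in Cxcl3, −34 in Cxcl1 and −57 in Cxcl2, which is in 1.76% of all promoters. A match describes the letters of the window and is not a measurement of binding.

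Values were FPKM, fragments per kilobase of exon scaled to library size, and recovered library totals ran from 27013100 to 42622700 fragments. Labels and levels were set against marker lists before the 8 genes were compared. Krt8 and Krt18, keratins of epithelial tumour cells, were abundant in every tumour, at 412 to 1064 and 333 to 877 FPKM. ICI 1 and ICI 4 stood apart by genes of lung epithelium. Sftpc, the surfactant protein of alveolar type II cells, was at 2887 FPKM in ICI 1 and 707 FPKM in ICI 4 and at no more than 0.204 FPKM in the other 6 tumours. Over a list of 16 alveolar and airway genes, chosen after these values were seen, the summed level was 9165 and 1079 FPKM in ICI 1 and ICI 4, 5.61 and 7.53 FPKM in ICI 3 and ICI 2, and 3.53 to 8.60 FPKM in RI. Sftpb, Nkx2-1 and Slc34a2 were at 0 in all RI tumours. ICI 1 also had the highest level of 17 of 19 neutrophil genes. In RI 4 the 3 most abundant gene models took 60.7% of all FPKM, and in each other tumour 5.14% to 10.9%. The labels call all 8 samples tumours. Whether ICI 1 and ICI 4 held lung tissue was not tested, and every ICI mean of 4 includes them. Results are therefore given with all tumours and without these libraries. The libraries left out were picked by the levels just given, and the sets without ICI 4 were chosen after the data had been seen.

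The comparison of RI with ICI asks how adding radiation to the inhibitor went with the level of each gene. Differences are RI minus ICI on the log2(FPKM + 1) scale, which understates changes of genes at low FPKM, and a gene was called at an adjusted p under 0.05 by limma with Benjamini-Hochberg adjustment over 13439 genes. With all 8 tumours, 0 of the 7 tested genes were called, where 17.7% of all genes tested were. At an unadjusted limma p under 0.05 it was 2 of 7, Cxcr2 and Csf1, beside 35.9% of all genes, and limma voom on recovered fragments also called 0. Csf2 lay below the filter of at least 1 FPKM in at least 4 tumours. The largest difference was that of Cxcr2, at −2.65, and the others lay between −0.99 and 0.43, beside a median of 0.0115 over all genes tested. In bulk tumour RNA, fewer cells of a type and less RNA per cell cannot be told apart.

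**Figure D1:**
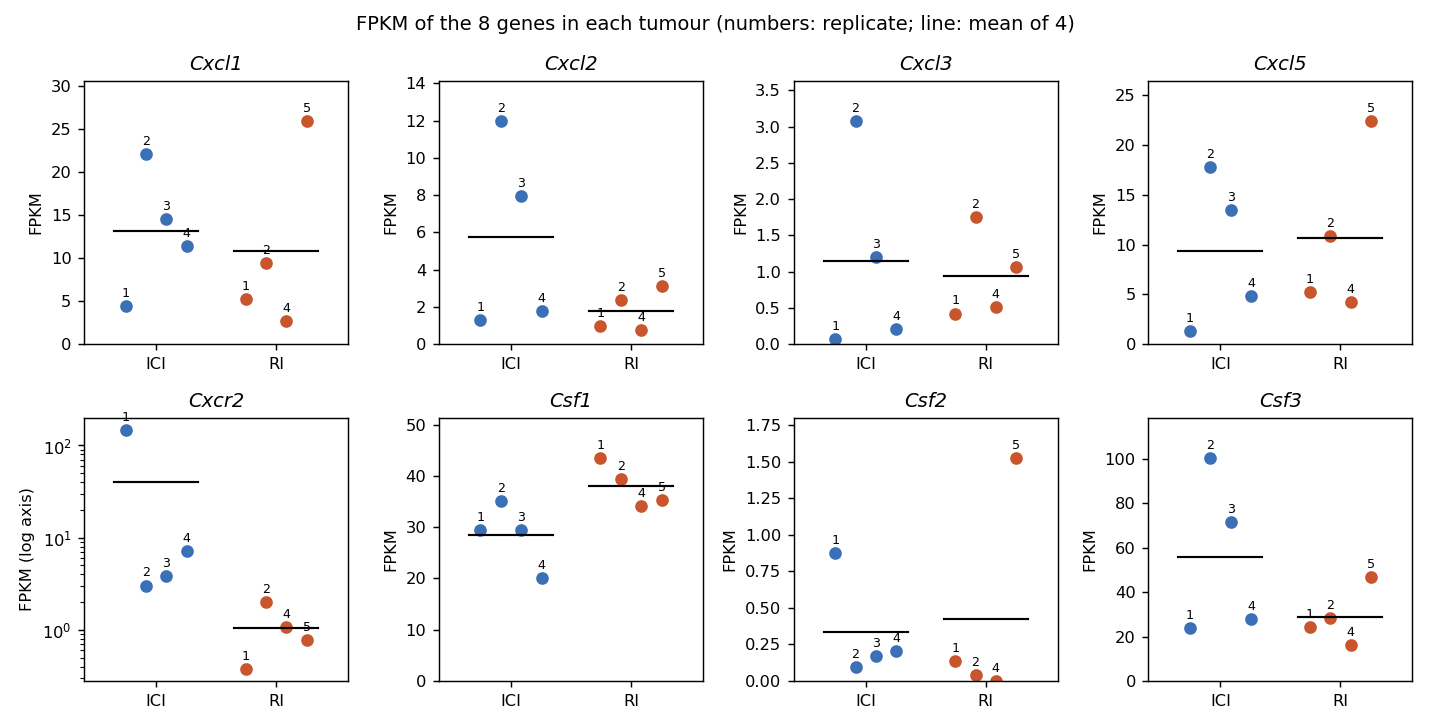
FPKM of each of the 8 genes (vertical axes, a log axis for Cxcr2 only) in the 4 ICI and the 4 RI tumours; points carry the replicate number and the line is the mean of 4. Cxcr2 is the only panel in which no RI tumour reaches an ICI tumour, and in Cxcl1, Cxcl2, Cxcl5 and Csf3 the tumours ICI 2 and ICI 3 lie high within their group.

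Among the ligands, Cxcl1 (KC), a main neutrophil attractant of the mouse, was at 4.39, 22.1, 14.5 and 11.4 FPKM in ICI 1, 2, 3 and 4. In RI 1, 2, 4 and 5 it was at 5.29, 9.37, 2.68 and 25.9 FPKM. The highest and the lowest tumour were both RI, and the groups overlapped throughout. The means were 13.1 ± 7.34 and 10.8 ± 10.4 FPKM (SD, n = 4 each), and the log2 difference of −0.47 (SE 0.64, 95% interval −1.95 to 1.00) had a limma adjusted p of 0.629.

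Cxcl2 (MIP-2), which shares Cxcr2 with Cxcl1, was at 1.29, 12.0, 7.97 and 1.78 FPKM in ICI 1, 2, 3 and 4. In RI 1, 2, 4 and 5 it was at 0.967, 2.35, 0.784 and 3.11 FPKM. ICI 2 and ICI 3 stood above all other tumours, while ICI 1 and ICI 4, the tumours with lung epithelial genes, lay within the RI range. The means were 5.75 ± 5.14 and 1.80 ± 1.12 FPKM (SD, n = 4 each), with a log2 difference of −0.99 (SE 0.58) and a limma adjusted p of 0.254. Without ICI 1 and ICI 4 the difference was −2.03 (SE 0.37) with a limma adjusted p of 0.0429, so Cxcl2 was called in that set, where 4.49% of genes were. Leaving out RI 4 as well gave −1.85 (adjusted p = 0.0334), beside 13.4% of genes called, and over all alternatives the limma adjusted p ran from 0.0334 to 0.478. These sets hold 2 ICI tumours. The 3 genes whose RI values all lay below ICI 2 and ICI 3 were Cxcl2, Csf3 and Cxcr2, of 7 tested, beside 19.9% of all genes.

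Cxcl3, the least abundant ligand, was at 0.0694, 3.08, 1.21 and 0.215 FPKM in ICI 1, 2, 3 and 4. In RI 1, 2, 4 and 5 it was at 0.423, 1.75, 0.519 and 1.06 FPKM. The lowest value rested on 8 fragments, with an exact Poisson 95% interval of 0.0300 to 0.137 FPKM that covers counting error only. The ICI tumours spanned the whole range, 44.3-fold from lowest to highest, and held both the highest tumour and the 2 lowest. The log2 difference was 0.02 (SE 0.42, limma adjusted p = 0.983), and its sign turned with median centring (−0.03) and without ICI 1 (−0.25). The transcripts of Cxcl2 and Cxcl3 share a run of 157 identical bases, against 14 to 23 for the other pairs of ligands. How the counting treated fragments from that run is not given in the sources used here, so the split between these paralogs is uncertain.

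Cxcl5 (LIX), a ligand that epithelial cells can secrete, was at 1.34, 17.8, 13.4 and 4.83 FPKM in ICI 1, 2, 3 and 4. In RI 1, 2, 4 and 5 it was at 5.29, 10.9, 4.22 and 22.4 FPKM. As for Cxcl1, RI 5 was the highest tumour and the groups overlapped. The means were 9.34 ± 7.57 and 10.7 ± 8.32 FPKM (SD, n = 4 each), the log2 difference was 0.33 (SE 0.72, 95% interval −1.31 to 1.97) and the limma adjusted p was 0.771. Without ICI 1 the difference was −0.25, and without ICI 1 and ICI 4 it was −0.75, with limma adjusted p of 0.793 and 0.443.

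Cxcr2, the receptor, was at 148, 3.03, 3.84 and 7.16 FPKM in ICI 1, 2, 3 and 4. In RI 1, 2, 4 and 5 it was at 0.377, 2.02, 1.06 and 0.770 FPKM. All RI tumours lay below all ICI tumours, as for 11.2% of the genes tested (27.9% did not overlap in either direction), and ICI 1 lay far above the rest. The log2 difference was −2.65 (SE 1.05) with a limma adjusted p of 0.110, and the exact two-sided permutation test gave p = 0.0286, the smallest that 70 regroupings of 4 against 4 tumours can give. Without ICI 1 it was −1.46 (SE 0.31, 95% interval −2.16 to −0.75) with a limma adjusted p of 0.0165, where 20% of genes were called. Leaving out RI 4 too gave −1.48 (adjusted p = 0.0303), beside 23.1% of genes called. Without ICI 1 and ICI 4 it was −1.16 (SE 0.31) with a limma adjusted p of 0.0643, which is not a call. Over all alternatives the limma adjusted p of Cxcr2 ran from 0.0165 to 0.372.

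The gene closest to Cxcr2 in pattern, out of 11565 compared over the 8 tumours, was Csf3r, the G-CSF receptor of neutrophils and their precursors, with a mean absolute difference of 0.14 between their centred log2 values, where the median gene had 1.46. Csf3r was at 370, 10.8, 13.2 and 23.1 FPKM in ICI 1, 2, 3 and 4 and at 4.96, 7.67, 5.07 and 3.46 FPKM in RI 1, 2, 4 and 5. Its order among the ICI tumours was that of Cxcr2, with ICI 1 far above, then ICI 4, ICI 3 and ICI 2. The next in likeness were Chil1 (0.28) and Asprv1 (0.31). The summed level of 19 neutrophil genes ran from 342 to 22713 FPKM in ICI and from 170 to 347 FPKM in RI, ICI 1 being the highest, and the groups overlapped narrowly. Mmp9 alone was at 203 FPKM in RI 2, the tumour with the highest RI sum, and at 28.9 to 99.6 FPKM in ICI. Padi4 was at 46.4 to 66.1 FPKM in every tumour. Of the 15 neutrophil genes that were tested, 2 fell with all tumours, S100a8 and S100a9, the subunits of calprotectin, beside 6.6% of all genes that fell, and 13 were not called. Without ICI 1, 7 fell and 1 rose, beside 20% of all genes called in either direction, and without ICI 1 and ICI 4, 5 fell and 0 rose, beside 4.49%. The gene that rose without ICI 1 was Mmp9, a protease stored in neutrophil granules, with a log2 difference of 1.38 (limma adjusted p = 0.0314). With all tumours Mmp9 was at 55.7 ± 30.6 FPKM in ICI and 115 ± 59.8 FPKM in RI (SD, n = 4 each). That difference was 1.05 (limma adjusted p = 0.104). Ly6g, the defining surface marker of mouse neutrophils, was at 0.263 to 18.5 FPKM in ICI. It was at 0 in 3 of the 4 RI tumours and at 0.0393 FPKM in RI 1. Cxcr1, the related receptor, stayed below the filter, at 0.751 ± 1.06 and 0.0562 ± 0.0704 FPKM (SD, n = 4 each). Red blood cell genes also lay lower in RI, with a summed level of 209 to 1063 FPKM in ICI and 0.465 to 103 FPKM in RI. The part of neutrophil number or of blood in the Cxcr2 difference was not tested.

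**Figure D2:**
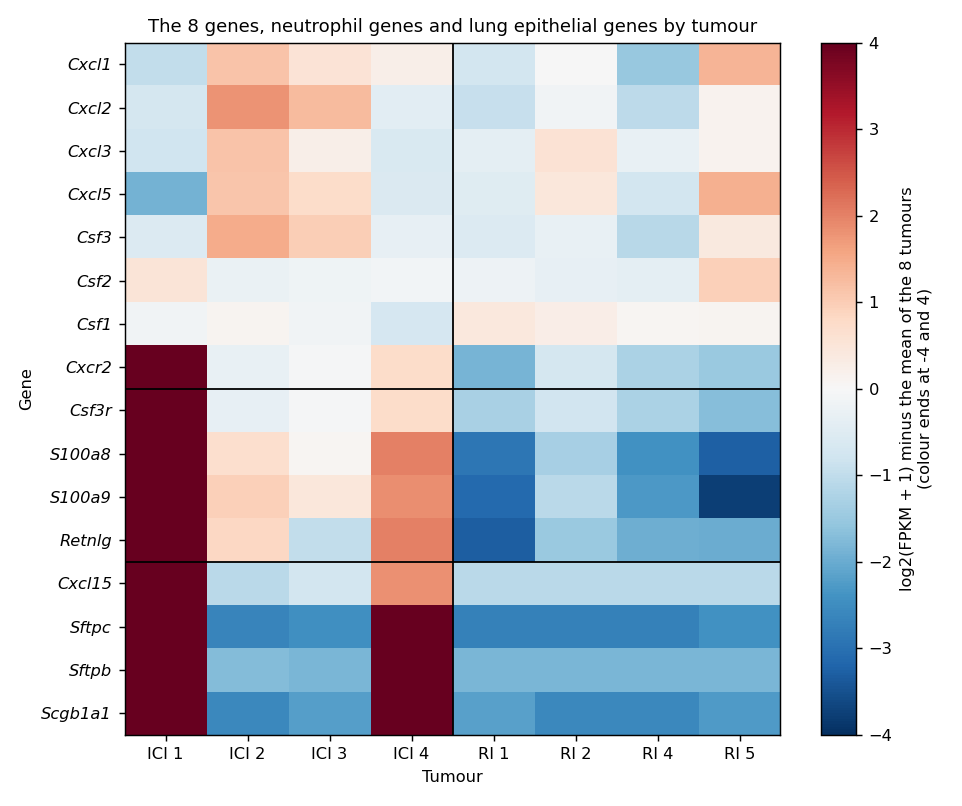
Each tumour's log2(FPKM + 1) minus the gene's mean over the 8 tumours (colour, ending at −4 and 4), for the 8 genes (top), 4 genes of the neutrophil group (middle) and 4 lung genes (bottom). Cxcr2 and the neutrophil genes are darkest in ICI 1, the lung genes in ICI 1 and ICI 4, and the ligands and Csf3 are low in ICI 1.

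Csf3, the growth factor of neutrophils, was at 23.9, 101, 71.6 and 28.1 FPKM in ICI 1, 2, 3 and 4. In RI 1, 2, 4 and 5 it was at 24.2, 28.5, 16.1 and 46.9 FPKM. ICI 2 and ICI 3 lay above all RI tumours, whereas ICI 1 and ICI 4 lay among them. The means were 56.0 ± 36.7 and 28.9 ± 13.0 FPKM (SD, n = 4 each), with a log2 difference of −0.78 (SE 0.50) and a limma adjusted p of 0.285. Without ICI 1 and ICI 4 it was −1.62 (SE 0.38, adjusted p = 0.0562 by limma), and without RI 4 in addition it was −1.38 (SE 0.31, adjusted p = 0.0425 by limma), a call. Array weights, which let limma give less weight to libraries far from their group, called Csf3 (−1.24, adjusted p = 0.0386) and Cxcl2 (−1.54, adjusted p = 0.0390), beside 32.1% of all genes. Over all alternatives the limma adjusted p of Csf3 ran from 0.0386 to 0.530.

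Csf1, the macrophage growth factor, was the steadiest of the 8, with 2.18-fold between its lowest and highest tumour. It was at 29.5, 35.1, 29.4 and 19.98 FPKM in ICI 1, 2, 3 and 4 and at 43.5, 39.4, 34.1 and 35.2 FPKM in RI 1, 2, 4 and 5. The groups met at a single tumour, ICI 2, which lay just above RI 4. The means were 28.5 ± 6.26 and 38.0 ± 4.29 FPKM (SD, n = 4 each), the log2 difference was 0.43 (SE 0.19, 95% interval 0.01 to 0.84), the unadjusted limma p was 0.0459 and the adjusted p 0.131. The exact permutation test gave p = 0.0571. Without ICI 1 and ICI 4 the difference was 0.23 (SE 0.16, limma adjusted p = 0.383).

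Csf2 was barely detected. Recovered fragments numbered 23, 3, 5 and 7 in ICI 1, 2, 3 and 4, against 3, 1, 0 and 52 in RI 1, 2, 4 and 5. In FPKM the ICI tumours were at 0.873, 0.0930, 0.170 and 0.206, and the RI tumours at 0.139, 0.0389, 0 and 1.53. RI 5 and ICI 1 stood above the rest, 1 in each group, and the exact two-sided permutation test gave p = 1. For RI 4 the count of 0 allows a level of up to 0.103 FPKM (3 fragments). The groups overlapped, and the spread within each was larger than the difference between them.

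**Figure D3:**
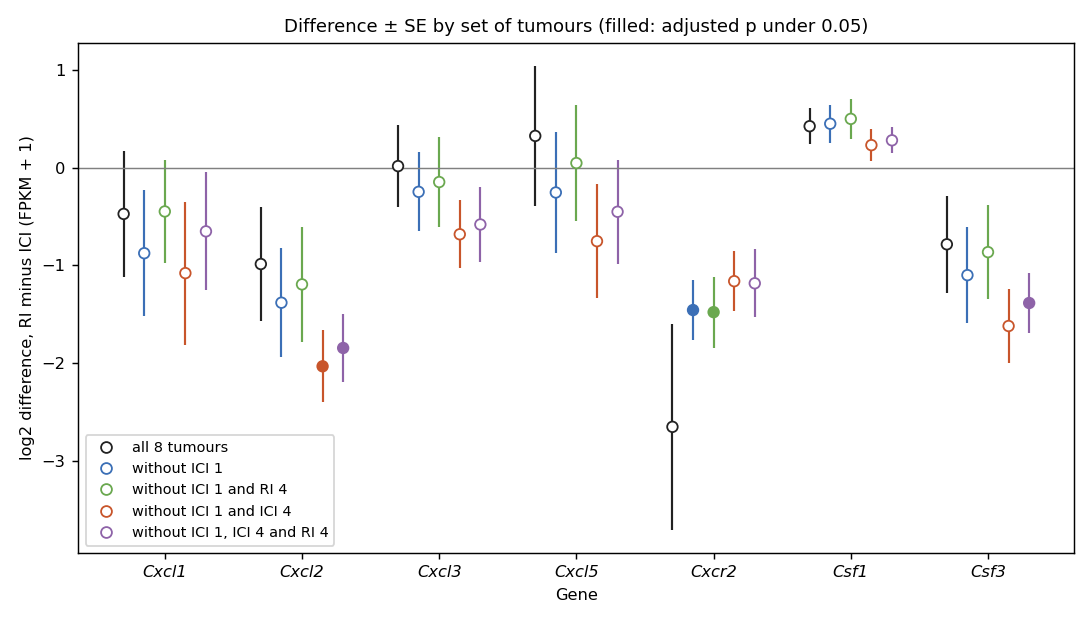
Log2 difference RI minus ICI with its SE (vertical axis) for the 7 tested genes, in 5 sets of tumours; filled points have a limma adjusted p under 0.05. With all 8 tumours no point is filled. Cxcr2 is filled without ICI 1 and without ICI 1 and RI 4. Cxcl2 is filled in both sets without ICI 4, and Csf3 without ICI 1, ICI 4 and RI 4.

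Per length of exon, the order of mean levels in ICI was Csf3, Cxcr2, Csf1, Cxcl1, Cxcl5, Cxcl2, Cxcl3 and Csf2, and each gene overlapped its neighbour in that order. The place of Cxcr2 there rests on ICI 1, since its other 3 ICI tumours, at 3.03 to 7.16 FPKM, lay below every ICI tumour of Csf1. In RI the order was Csf1, Csf3, Cxcl1, Cxcl5, Cxcl2, Cxcr2, Cxcl3 and Csf2. All neighbours overlapped except Cxcl5 (lowest tumour 4.22 FPKM) and Cxcl2 (highest tumour 3.11 FPKM). These overlaps compare ranges over tumours and not genes within a tumour. Within every ICI tumour Cxcl1 was above Cxcl5 (ratio 1.08 to 3.28), whereas in RI Cxcl1 over Cxcl5 was 0.636 to 1.16. Cxcl2 was above Cxcl3 in every tumour of both groups (3.89 to 18.6 in ICI and 1.34 to 2.93 in RI). Cxcl1 was below Csf3 in every tumour of both groups (0.183 to 0.406 in ICI and 0.167 to 0.552 in RI). For Cxcl1, Cxcl2 and Cxcl3 the annotated exons, retained-intron transcripts included, cover the whole gene, which lowers their FPKM. With the length of the coding transcript instead, only Cxcr2 and Cxcl3 changed places, in RI.

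Cxcl1, Cxcl2, Cxcl3, Cxcl5 and Csf3 ranked the tumours in similar order. ICI 2 and ICI 3 were among the 3 highest tumours for all 5 genes, and RI 5 for 4 of them. ICI 1 was among the 3 lowest for all 5, and RI 1 and RI 4 for 4 each. Tumours of both groups thus stood at both ends. The summed level of the 4 ligands was 7.08, 54.9, 37.1 and 18.2 FPKM in ICI 1, 2, 3 and 4 and 12.0, 24.3, 8.21 and 52.4 FPKM in RI 1, 2, 4 and 5. The 5 genes were measured in the same libraries, and the resemblance is a description of 8 tumours.

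By closeness of pattern over the 8 tumours, the gene nearest to Cxcl2 was Csf3, and the gene nearest to Csf3 was Cxcl2, with a mean absolute difference of 0.21 on the log2 scale. Hilpda (0.35) and Mt1 (0.37) followed for Cxcl2, and Mt1 (0.30) and Rbp2 (0.32) for Csf3. Mt1, which encodes a metallothionein, was at 126 to 350 FPKM in ICI and 70.1 to 205 FPKM in RI. For Cxcl1 the nearest were Rbp2 (0.39), Mt1 (0.40) and Sncg (0.41). Cxcl5 was nearest to Plin2 (0.40), Mettl7b (0.40) and Mmp10 (0.41), and Cxcl3 to Bhlhe40 (0.25), Bnip3l (0.26) and Jdp2 (0.28). Csf1 was nearest to Igf1r (0.05), Lmnb1 (0.07) and Etv6 (0.07), where the median gene was at 0.32.

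Among the 10 ratios of these 5 genes within a tumour, examined after their values had been seen, 3 did not overlap between RI and ICI (30%), beside 29.3% of all pairs of tested genes, a share near this background. Cxcl2 over Cxcl5 was 0.967, 0.674, 0.594 and 0.369 in ICI 1, 2, 3 and 4, against 0.183, 0.216, 0.186 and 0.139 in RI 1, 2, 4 and 5. The RI ratios lay below all ICI ratios, those of ICI 1 and ICI 4 included. The log2 ratio differed by −1.78 between the group means. Cxcl2 over Cxcl3 differed by −2.05, a size that depends on low values: it was −1.003 with a pseudocount of 1 and −0.89 after the length and GC correction, Cxcl3 resting on 8 fragments in ICI 1, and the split between these paralogs is uncertain. Cxcl5 over Csf3 differed by 1.26. As a share of the summed ligand FPKM, Cxcl2 took 9.79% to 21.8% in ICI and 5.93% to 9.64% in RI, and Cxcl5 took 18.9% to 36.2% in ICI and 42.7% to 51.4% in RI. No test is given for ratios picked in this way.

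**Figure D4:**
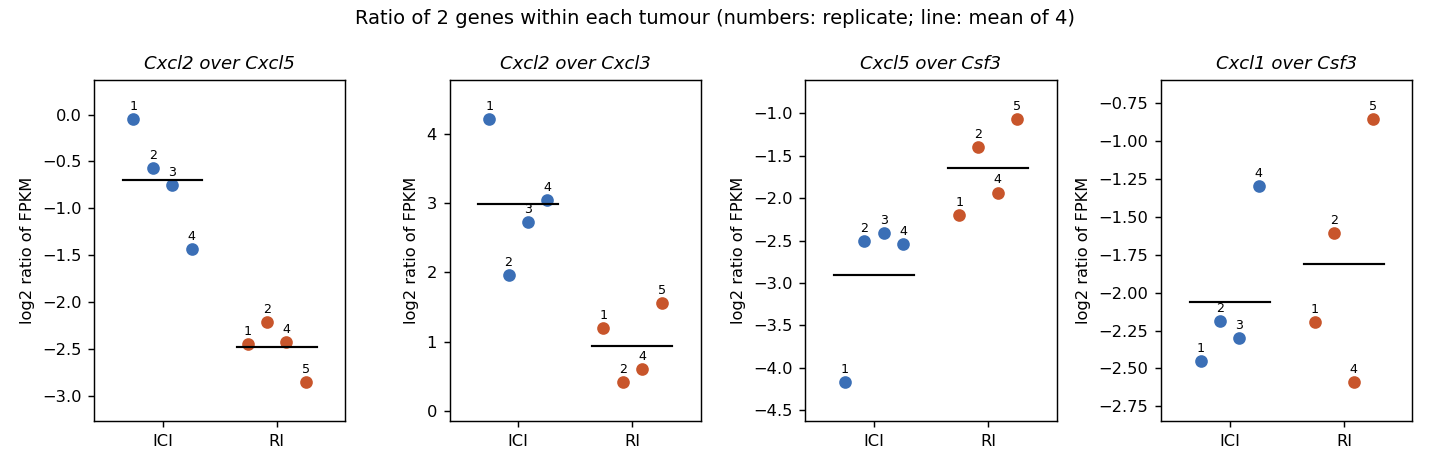
Log2 ratio of FPKM of 2 genes within each tumour (vertical axes), by group, with replicate numbers and the mean of 4 as a line. Cxcl2 over Cxcl5, Cxcl2 over Cxcl3 and Cxcl5 over Csf3 separate the groups, and Cxcl1 over Csf3 is a ratio that overlaps.

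Of 12 other genes of the Cxcr2 axis, 9 were tested, 1 fell and 0 rose, beside 6.6% of all genes tested that fell and 11.1% that rose, with a median log2 difference of 0.06. The gene that fell was Cxcr4, the receptor that holds neutrophils in the bone marrow. Cxcr4 was at 22.1, 13.3, 12.5 and 12.1 FPKM in ICI 1, 2, 3 and 4 and at 6.24, 8.03, 6.95 and 4.52 FPKM in RI 1, 2, 4 and 5, with no overlap. Its log2 difference was −1.09 (SE 0.22, limma adjusted p = 0.0168), and −0.92 without ICI 1 and ICI 4 (adjusted p = 0.0475). In fits leaving out 1 tumour each, its limma adjusted p stayed between 0.0117 and 0.0492, whereas TPM (adjusted p = 0.169) and no filter (adjusted p = 0.0607) did not call it. Pf4, a platelet chemokine between Cxcl5 and Cxcl3 on chromosome 5, had a difference of 0.75 (SE 0.45, limma adjusted p = 0.260). Cxcl15, the lung chemokine next to Cxcl3, was at 40.9 and 6.53 FPKM in ICI 1 and ICI 4, at 0.282 FPKM in ICI 3, and at 0 in ICI 2 and all RI tumours. Grk2 and Arrb2, which switch off G protein-coupled receptors, had differences of −0.63 and −0.92 (limma adjusted p = 0.281 and 0.217), with ICI 1 at 117 and 137 FPKM against at most 33.6 and 31.4 FPKM in the other tumours. Without ICI 1 the differences were −0.17 and −0.37 (limma adjusted p = 0.408 and 0.205).

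Of the 6 colony-stimulating factor receptors and related ligand, all were tested and limma called 0 with all tumours, beside 17.7% of all genes. Their median difference was 0.08. At an unadjusted limma p under 0.05 there was 1, Csf3r, beside 35.9% of all genes. Its log2 difference was −2.51 (SE 1.00, limma adjusted p = 0.110). Without ICI 1 it was −1.38 and called (adjusted p = 0.0157), as Cxcr2 was, and without ICI 1 and ICI 4 it was −1.08 (limma adjusted p = 0.0509). Csf1r, the macrophage receptor for Csf1, was at 8.91 to 17.6 FPKM in ICI and 12.2 to 21.2 FPKM in RI, a difference of 0.31 (SE 0.23, limma adjusted p = 0.353). Csf2ra, the ligand-binding chain of the GM-CSF receptor, was at 174, 18.8, 15.7 and 17.8 FPKM in ICI 1, 2, 3 and 4 and at 5.79 to 14.5 FPKM in RI. All its RI values lay below the ICI values, with a difference of −1.57 (SE 0.73, limma adjusted p = 0.159). Without ICI 1 it was −0.76 (limma adjusted p = 0.0580), and without ICI 1 and RI 4 it was −0.54 and called (limma adjusted p = 0.0419). Csf2rb and Csf2rb2, the signalling chains, had differences of 0.03 and 0.28 (limma adjusted p = 0.971 and 0.610). Without ICI 1 and RI 4, both were called, at 0.74 and 0.82 (limma adjusted p = 0.0152 and 0.0140). That set leaves out the highest ICI tumour and the lowest RI tumour of both genes. Without ICI 1 alone neither was called, at 0.57 and 0.65 (limma adjusted p = 0.0710 and 0.0502).

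Of 16 genes that act below these receptors, 14 were tested, 2 rose and 1 fell, with a median difference of 0.23. These 3 calls stand beside 17.7% of all genes called, a share near this background. Jak1 and Jak2 encode the kinases attached to cytokine receptors, Jak2 serving Csf2 and Csf3. Jak2 was at 13.5, 16.2, 21.1 and 12.2 FPKM in ICI 1, 2, 3 and 4 and at 29.9, 27.0, 27.2 and 29.2 FPKM in RI 1, 2, 4 and 5. The RI tumours lay close together and above every ICI tumour, with a difference of 0.84 (SE 0.17, limma adjusted p = 0.0173). Jak1 had a difference of 0.49 (SE 0.13, limma adjusted p = 0.0339), from 20.6 ± 2.19 to 29.2 ± 1.75 FPKM (SD, n = 4 each). Cebpb, a transcription factor of emergency granulocyte production, fell from 271 ± 65.1 to 142 ± 13.2 FPKM (SD, n = 4 each; −0.89, SE 0.22, limma adjusted p = 0.0260). Socs3, the inhibitor that Csf3 signalling induces, had −0.72 (SE 0.25, limma adjusted p = 0.0707). Without ICI 4 the limma adjusted p of Jak2 was 0.0574, without any 1 of ICI 2, ICI 3, ICI 4, RI 1, RI 2 or RI 5 that of Jak1 was 0.0631 to 0.104, and without any 1 of ICI 2, ICI 3, RI 1, RI 2, RI 4 or RI 5 that of Cebpb was 0.0528 to 0.0637. None of the 3 was called with TPM or without the filter, Jak1 and Jak2 were not called without ICI 1 and ICI 4 (0.0632 and 0.0617), and after a correction for gene length and GC content Jak1 was at 0.24 and Cebpb at −0.52 (limma adjusted p = 0.123 and 0.105).

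Of 14 genes of the inducing cytokines IL-17, IL-1 and TNF, 11 were tested and 0 were called by limma, beside 17.7% of all genes. Their median difference was −0.23. At an unadjusted limma p under 0.05 there were Il1b and Il1r1, beside 35.9% of all genes. Il1b, which encodes a main inducer of Cxcl1 and Cxcl2, was at 34.3, 25.4, 26.9 and 10.4 FPKM in ICI 1, 2, 3 and 4 and at 12.0, 10.8, 6.21 and 2.45 FPKM in RI 1, 2, 4 and 5. ICI 4 alone lay among the RI tumours, and RI 5, the tumour highest in Cxcl1 and Cxcl5, was the lowest in Il1b. The difference was −1.57 (SE 0.48) and the limma adjusted p 0.0536, with 8 of 26 alternatives past the threshold. Il1r1, the IL-1 receptor, had 0.53 (SE 0.19, limma adjusted p = 0.0812). Il17a was at 0 in 7 tumours and at 0.0259 FPKM in ICI 1.

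All 14 genes of NF-kB and its feedback were tested and 0 were called by limma, beside 17.7% of all genes. Their median difference was −0.21. Nfkbib, an inhibitor of NF-kB, was nearest to a call, at −0.54 (SE 0.16, limma adjusted p = 0.05001, just above the threshold). Tnfaip3 (A20), an enzyme that ends NF-kB signalling, had 0.65 (adjusted p = 0.0513). Its RI tumours lay above its ICI tumours only barely, with RI 4 at 9.26 FPKM and ICI 3 at 9.22 FPKM. Of all genes tested, 27.9% did not overlap in either direction. Nfkbiz, a cofactor of NF-kB at secondary response genes, had −0.67 (adjusted p = 0.0582), and Zc3h12a (Regnase-1), which degrades mRNAs of inflammation, had −0.59 (adjusted p = 0.0742). Each of these 4 passed the threshold in a minority of the alternatives tried, 8, 8, 9 and 4 in the order named. In the other 18, 18, 17 and 22 they did not, and the limma adjusted p reached 0.639, 0.350, 0.503 and 0.559. Upper-quartile scaling was among the passes (adjusted p of 0.0196, 0.0306, 0.0224 and 0.0320 by limma, in the order named). That scaling called 3320 of all 13439 genes, against 2373 without it.

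**Figure D5:**
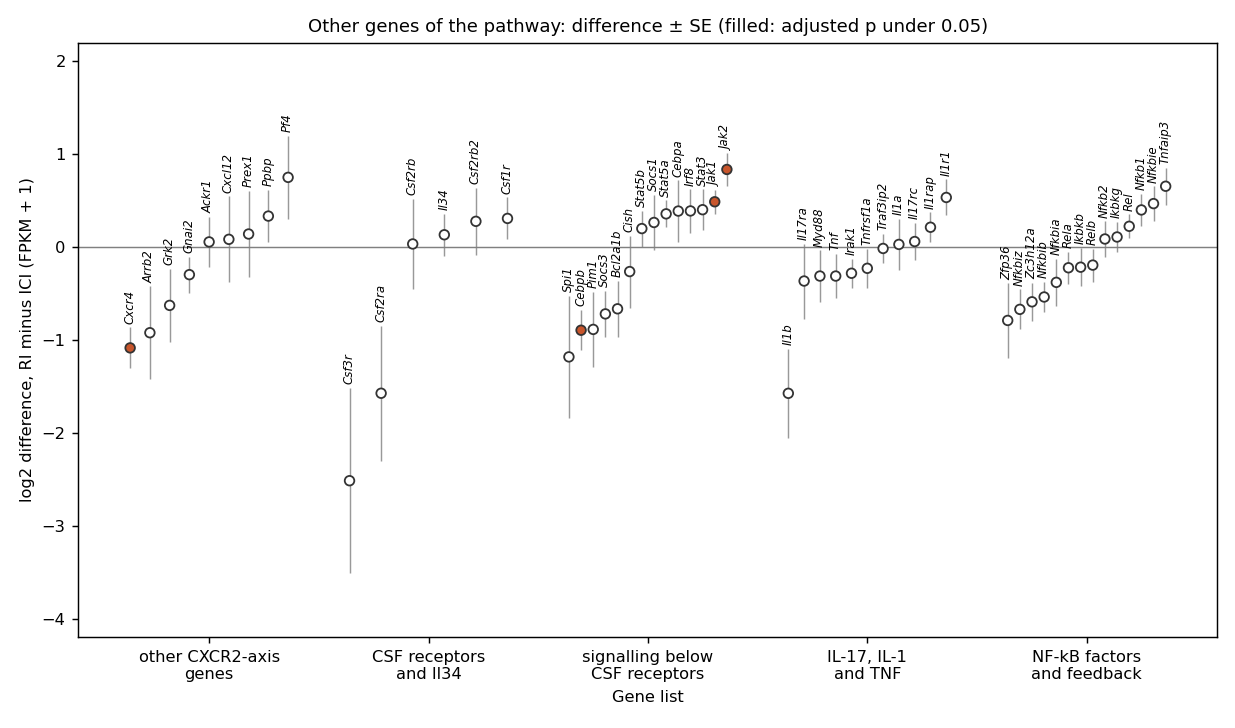
Log2 difference RI minus ICI with its SE (vertical axis) for the tested genes of the 5 pathway lists, ordered by value within each list; filled points have a limma adjusted p under 0.05. The 4 filled points are Cxcr4 and Cebpb below 0 and Jak1 and Jak2 above 0.

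Genes of other cell types were read beside the 8 genes, against 11.1% of all genes that rose and 6.6% that fell. Of all genes, 20% were called without ICI 1 and 4.49% without ICI 1 and ICI 4. A call lost in these smaller sets does not show that the difference was lost. Among 12 macrophage and monocyte genes 2 rose, Adgre1 (F4/80) by 1.96 and Mrc1 by 1.57 on the log2 scale (limma adjusted p = 0.00158 and 0.0207), but their summed level overlapped, at 356 to 461 FPKM in ICI and 352 to 850 FPKM in RI. Adgre1 alone was called without ICI 1 and ICI 4. Csf1 and Csf1r were not called. Of 8 tested fibroblast genes 4 rose, the collagens Col1a1 (1.96), Col1a2 (1.65) and Col3a1 (2.02) and the matrix proteoglycan Lum (1.43), and the summed fibroblast level was 61.3 to 80.6 FPKM in ICI and 118 to 530 FPKM in RI. Without ICI 1 it was 2 of 8, and without ICI 1 and ICI 4 it was 0, beside 20% and 4.49% of all genes called. Without ICI 1 and RI 4 it was 6 of 8, and with array weights also 6, beside 23.1% and 32.1%. Without ICI 1, ICI 4 and RI 4 it was 1 of 8, beside 13.4%.

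Of 5 tested mast cell and basophil genes 3 rose, the proteases Cpa3 (1.47), Tpsb2 (2.39) and Cma1 (1.91), with sums of 0.503 to 10.7 FPKM in ICI and 16.2 to 53.1 FPKM in RI. None of these 3 was called without ICI 1 and ICI 4, where 4.49% of all genes were. Of the 5, 3 rose without ICI 1 and 4 without ICI 1 and RI 4, beside 20% and 23.1% of all genes called. With array weights all 5 rose, beside 32.1%, and 0 did without ICI 1, ICI 4 and RI 4, beside 13.4%. Of 4 tested red blood cell genes 2 fell, the globins Hba-a1 (−3.71) and Hbb-bt (−3.07). All 5 listed red blood cell genes had every RI value below every ICI value, as had 11.2% of all genes tested. Without ICI 1, where 20% of all genes were called, 0 of the 4 tested red blood cell genes were (limma, Hbb-bt at an adjusted p of 0.109 and Hba-a1 at 0.1003). Of 6 skeletal muscle genes 2 rose, Ckm (3.05) and Myh4 (3.40), with overlapping sums of 1.88 to 229 FPKM in ICI and 102 to 541 FPKM in RI, and 0 were called without ICI 1. The keratin Krt10 fell by 0.86, 1 of 2 tested skin genes, and was not called without ICI 1 and ICI 4 (limma adjusted p = 0.112).

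B and plasma cell genes had sums of 6.10 to 41.4 FPKM in ICI and 1.62 to 5.51 FPKM in RI. Of 2 tested genes 0 were called, and 1, Jchain (−1.15, limma adjusted p = 0.0250), without ICI 1, where 20% of all genes were. With all tumours 0 genes were called by limma among 4 of endothelium, 4 of tumour epithelium, 2 of T and NK cells, 1 of platelets and 4 of lung epithelium. The summed endothelial level was 117 FPKM in ICI 1 and 15.7 to 46.9 FPKM in the other 7 tumours. The part of these cells in the levels of the 8 genes was not tested.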

How the data were processed

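RNA from 8 whole tumours was sequenced, and the sample titles gave group and replicate. The authors deposited FPKM, 1 column for each tumour. Per the submitters' processing notes, the tool HISAT2 and the build GRCm38 (mm10) are listed; the counter, annotation, strand setting and filters were not given in the sources used here. GENCODE M21 matched 31407 of 32098 rows by identifier and supplied coordinates and exon lengths. Multiplying low FPKM values by exon length gave steps from which fragments were recovered, with 98.6% to 98.8% of low values whole to within 0.05. They gave depth, intervals and 1 alternative fit. The closest pair of libraries still differed by a chi-square of 32.8 per gene, beyond sampling noise.

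The 13439 genes that reached 1 FPKM in 4 or more tumours were tested, on log2(FPKM + 1), a pseudocount of 1, by limma 3.58.1 in R 4.3.3 (lmFit, eBayes with trend and robust, two-sided tests) with Benjamini-Hochberg adjustment over these genes. The test was checked on simulated data. Exact permutation tests were two-sided (scipy 1.17.1). Intervals cover 95%.

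The 8 genes, the 5 pathway lists and the 12 cell type lists were chosen with earlier results of these data known. All 8 genes are named, up to 4 genes per pathway list by smallest unadjusted p with Csf1r, Csf2ra, Csf2rb and Csf3r added, called genes of cell type lists with some of the most abundant, and the 3 genes most similar in pattern to each tested member. Cxcl15, Il17a, Cxcr1, Ly6g, Mmp9, Jchain, Krt18 and the lung genes were named after their values were seen, as were the ratios. Alternatives were 2 other filters, pseudocounts of 0.1 and 5, TPM, 3 other normalizations, rescaling without mitochondrial and ribosomal RNA-like models, plain eBayes, array weights, the replicate number as a block, a length and GC correction, voom on fragments, each tumour left out, and fits without ICI 1 and RI 4, without ICI 1 and ICI 4, and without all 3.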

Additional observations from a re-analysis of the deposited data

Results flagged for a closer look

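Of 16 groups of 4 tumours (8 genes, 2 treatments), 3 held a tumour far from the others, its gap to the nearest tumour taking more of the whole range than Dixon's 95% critical value. Chance flags about 1 in 20 groups of normally distributed values. The rule was applied to FPKM and not to log2 values, so that share may not hold here. Cxcr2 in ICI 1 was at 148 FPKM, against 7.16 FPKM in the next ICI tumour. Csf2 in ICI 1 was at 0.873 FPKM, against 0.206 FPKM in the next. Csf2 in RI 5 was at 1.53 FPKM, against 0.139 FPKM in the next RI tumour. ICI 1 is also the tumour with the highest neutrophil and lung epithelial levels, whose part in the first 2 values was not tested.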

How the results depend on the processing

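Of the 7 tested genes, 0 were called in 21 of 26 alternatives. The exceptions were array weights (2), the fits without ICI 1 and RI 4 (1), without ICI 1 and ICI 4 (1) and without ICI 1, ICI 4 and RI 4 (2), and leaving out 1 tumour at a time (0 to 1, the 1 being without ICI 1). The count over all genes, 2373, became 241 without the filter, 280 with TPM, 4319 with array weights, 603 without ICI 1 and ICI 4, and 336 (without ICI 4) to 2693 when 1 tumour was left out. With the replicate number as a block (replicate block) 22 genes were called, and 3 with the block and the length and GC correction, 0 of them among the 8 genes. Cxcr4, Jak1, Jak2 and Cebpb were not called with the block (limma adjusted p = 0.0955, 0.195, 0.0879 and 0.165) or with the block and that correction (0.161, 0.363, 0.101 and 0.378). Same-numbered tumours did not deviate together (correlations −0.0923, −0.120 and −0.124), so the numbers give no pairing. Cxcl1, Cxcl2, Cxcr2, Csf1 and Csf3 kept their direction in every alternative run. The sign of Cxcl3 turned with pseudocount 5 (−0.0286), median centring (−0.0292), array weights (−0.30), the length and GC correction (−0.0444, and −0.0146 with the block), and without ICI 1 and RI 4 (−0.15), ICI 1 and ICI 4 (−0.68) or all 3 (−0.58), and ran from −0.25 to 0.40 with 1 tumour left out. Cxcl5 turned with array weights (−0.35), without ICI 1 and ICI 4 (−0.75) and without all 3 (−0.45), and ran from −0.25 to 0.75 with 1 tumour left out. Csf2, too low for a firm direction, was at −0.38 with pseudocount 0.1 and at −0.30 to 0.19 with 1 tumour left out. Csf2rb turned with pseudocount 5 (−0.0292), median centring (−0.0125), quantile normalization (−0.0150), the block (−0.23), the length and GC correction (−0.15) and both (−0.40), and ran from −0.18 to 0.57 with 1 tumour left out. Il1rap turned with the length and GC correction (−0.0884, and −0.26 with the block). The log2 ratio of Cxcl1 over Csf3 differed by −0.0687 to 0.51 with 1 tumour left out. The cause of these changes was not tested. With 4 tumours per group the 95% intervals stayed wide (−1.95 to 1.00 for Cxcl1), and below about 3 fragments, 0.0201 to 0.0317 FPKM for Cxcl3 and 0.0880 to 0.139 FPKM for Csf2, nothing can be told from 0.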
